A study of Mus musculus with 50 samples.

Results

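A set of 10 genes of fibroblast growth factor (FGF) signalling, of 21954 genes in the deposited tables, were followed in the wound bed of mouse digits after amputation of the distal terminal phalanx (P3). They were chosen by name, and comprise 5 ligands (Fgf1, Fgf2, Fgf7, Fgf10 and Fgf18), 3 receptors (Fgfr1, Fgfr2 and Fgfr3) and 2 feedback genes (Spry2 and Spry4). RNA-seq was available for 29 non-regenerative (NR) digits and 12 intermediate digits, which the labels call Medium. The NR digits had 60% to 80% of P3 removed by label, with 12 of the 29 at 67% or less, among them all 3 at 12 hours (64%, 64% and 67%). These 12 lie at or below the limit that the study's text names for non-regenerative amputation, and were kept in the group of their label. The NR digits cover 9 time points, namely 0, 3, 6, 12 and 24 hours, then days 3, 7, 14 and 21. Each is represented by 3 digits, except for day 7 with 5. The intermediate digits had 41% to 55% removed, and 3 were taken at each of 0 hours, 24 hours, day 14 and day 21. All digits came from male C57Bl/6 mice with no transgene or drug, young adults amputated at digit 3 of the hindlimb, and each digit gave 1 library. Regenerative digits were not analysed here, so the comparison of levels is between NR and intermediate digits, and the digits at 0 hours, taken at amputation, are the control of each time course.

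FGF ligands are secreted proteins that bind heparan sulfate and dimerize receptor tyrosine kinases on the target cell. The activated receptor signals through RAS and the MAP kinase ERK, and also through phospholipase C gamma and PI3 kinase. ERK induces its own brakes, among them the Sprouty proteins encoded by Spry2 and Spry4, so Sprouty transcripts are widely read as an output of receptor tyrosine kinase signalling. In skin, Fgf7 and Fgf10 are made by mesenchymal cells and act on the epithelial form of Fgfr2, which is how dermis supports the keratinocytes above it, while Fgfr3 is prominent in cartilage and epidermis and Fgfr1 in mesenchyme.

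The 41 digits held between 1468749 and 13011782 expected counts, with a median of 6835347. Of these, 3 NR digits stood apart from the others of their time in rank correlation over genes averaging at least 1 normalized TPM. They were the digits amputated at 75% at 3 hours, which was also the shallowest, at 65% at 7 days and at 77% at 14 days. Their median distances (1 minus rho) were 0.18, 0.309 and 0.352. The first lay nearer to the others of its time, which had 0.123 and 0.137. The other digits reached at most 0.157 at 7 days and 0.0906 at 14 days. Where a change described in the text moves without these digits, it is given both ways, whereas the figures include all digits. By label, 10 digits share mark, date and side with another digit, and all were kept as labelled. Of the 22 comparisons of 2 groups, 3 hold 1 such shared label. These are 12 against 0 hours and 7 against 3 days in NR digits, and the groups at 14 days. In the last, an intermediate digit (42%) and an NR digit (80%) carry the same mark, date and side. The labels give the tissue as a mixture of cells around the wound bed, and summed markers of keratinocytes, fibroblasts, osteoblasts, endothelium, macrophages and neutrophils were above 0 in every group, whereas the sum of 5 skeletal muscle markers did not exceed 59.6 CPM (counts over the TMM-scaled library size) in any digit. These are bulk samples, in which fewer cells of a type and less RNA per cell cannot be told apart.

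The promoters of 2 members are shown, those of Spry2 and Fgf10, since these were the members whose transcripts passed the test between individual time points. Each line gives the 250 bases before the RefSeq transcript start in GRCm38.p6, 5′ to 3′ on the gene's strand, with capitals for a GC box (GGGCGG, read on both strands) and lower case elsewhere. Spry2 lies on the minus strand, and the searched window of 300 bases, which runs 50 bases past the start, is chr14:105896770-105897069. The window of Fgf10, on the plus strand, is chr13:118714449-118714748.
Spry2: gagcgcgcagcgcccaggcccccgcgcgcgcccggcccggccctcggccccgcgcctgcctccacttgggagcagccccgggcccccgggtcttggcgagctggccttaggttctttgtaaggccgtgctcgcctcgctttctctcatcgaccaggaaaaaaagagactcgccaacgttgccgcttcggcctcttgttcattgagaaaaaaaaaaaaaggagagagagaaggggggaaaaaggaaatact
Fgf10: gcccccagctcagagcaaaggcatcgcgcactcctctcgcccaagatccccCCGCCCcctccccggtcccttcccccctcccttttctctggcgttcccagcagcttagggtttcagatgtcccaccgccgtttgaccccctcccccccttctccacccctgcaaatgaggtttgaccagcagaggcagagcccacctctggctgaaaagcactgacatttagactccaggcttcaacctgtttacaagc
The Spry2 stretch held no GC box and ended in a purine-rich run, whereas that of Fgf10 held 1 GC box. An ETS core (CCGGAA, both strands), the letters bound by transcription factors that ERK activates, began 33 bases after the Spry2 start and is in capitals in the following stretch.
Spry2 site: aggtcatctatcCCGGAAtccgggagggt
Of all 32851 promoter windows of 300 bases in the RefSeq table, 14.9% held the ETS core, 35.7% the GC box and 7.81% an AP-1 motif (TGANTCA). Windows were found for 7 of the 10 members. Among the 7 members searched, Spry2 was the single one with the ETS core, and none held the AP-1 motif. A match is a description of letters and does not show that a factor binds there.

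The 3 receptors were the most abundant members by median, and the feedback genes lay among the ligands. On the normalized TPM scale, which is per transcript length and so allows genes to be compared, the median over the 41 digits was 157 for Fgfr1 (range 35.1 to 331), 97.1 for Fgfr3 (9.14 to 299) and 76.5 for Fgfr2 (24.6 to 157). Fgf7, the keratinocyte growth factor, had a median of 25.3 and was the leading ligand. Fgf1 followed at 7.45, Fgf2 at 5.6, Fgf10 at 1.75 and Fgf18 at 0.984 normalized TPM. Of the feedback genes, Spry2 had a median of 20.4 and Spry4 of 1.72. The ranges of neighbours in this order overlapped across digits, so the order is that of the medians. The highest Fgfr1 and Fgfr3 values and the lowest Fgfr2 value came from the NR digit that stood apart at 14 days. Its normalized TPM summed to 3362791, where no other digit exceeded 1434851. The lowest Fgfr3 value came from the digit that stood apart at 7 days. Fgfr4, the remaining signalling receptor of the family, averaged between 0 and 1.13 CPM in the 13 groups. Fgf18 had at most 21 counts in any digit and 0 in 9 digits, so it passed the filter on low counts only in the fits over many digits and in the 21-day comparison of the groups.

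**Figure D1:**
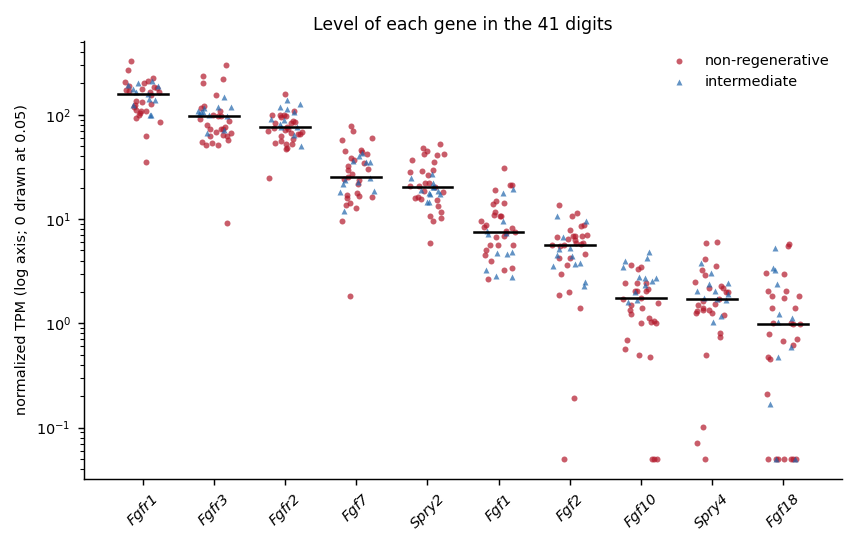
Normalized TPM of the 10 genes in each of the 41 digits (log axis; values of 0 are drawn at 0.05); circles are NR digits, triangles intermediate digits, and the bar is the median over all digits. Receptors lead, from 157 for Fgfr1 to 76.5 for Fgfr2, and Fgf18 is lowest at 0.984.

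Spry2, an inhibitor of receptor tyrosine kinase signalling, rose in NR digits within the first day and returned to its starting level by 3 days. It lies at chr14:105891947-105896819 (GRCm38, minus strand). At 0 hours, the NR digits had 21.1, 27.1 and 25.2 CPM, and at 3 hours 27.4, 14.9 and 7.54, the last in the shallow digit with 12 counts. At 6 hours the digits had 51.5, 35.7 and 36.8 CPM, at 12 hours 46.5, 51.7 and 62.9, and at 24 hours 59.9, 50.8 and 56. From 6 to 24 hours, each of the 9 digits was above each of the 3 digits at 0 hours. In either direction, 33%, 41.6% and 39% of all genes did not overlap with 0 hours at 6, 12 and 24 hours. At 3 days the values were 16.1, 33 and 19.2 CPM, which overlap those at 0 hours, and at 14 and 21 days all 6 digits lay between 18.8 and 25.4. At 7 days, 4 digits had between 11.8 and 18.4 CPM and the digit that stood apart had 46.1.

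Calls required an edgeR adjusted p-value under 0.05 over all genes and a ratio of mean normalized counts, each with 1 added, above 2-fold in either direction. Spry2 was called at 12 hours against 0 hours, with a log2 fold change of 1.15 (SE 0.195, adjusted p = 0.007516), and at 24 hours, with 1.19 (SE 0.176, adjusted p = 0.00414). On the linear scale these were 2.22-fold and 2.28-fold rises. The rise at 6 hours was 0.75 on the log2 scale and missed the threshold (SE 0.218, adjusted p = 0.07932). From 3 to 6 hours the change was 1.25 (SE 0.433, adjusted p = 0.2672), or 0.93 without the shallow digit (adjusted p = 0.1947). Between 24 hours and 3 days Spry2 fell by 1.27 on the log2 scale (SE 0.277, adjusted p = 0.04432). This last call was lost when any of 5 of the 6 digits was left out (adjusted p between 0.08768 and 0.1948, the exception being 3-day replicate 2), in limma (adjusted p = 0.09325) and in both fits of all 41 digits (0.2713, and 0.2038 with a date term), while the 12- and 24-hour calls were kept without any 1 of their 6 digits. Fitting all 41 digits together left the 12- and 24-hour changes at 1.13 and 1.18 with adjusted p-values of 0.1386 and 0.1309.

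Over the whole NR time course, Spry2 was the member called (adjusted p = 0.0176), with a 3.35-fold range of time-point means. The 1 member called of 10 compares with 7.6% of all genes tested. Without 1 digit, the adjusted p of Spry2 passed 0.05 when 12-hour replicate 2 or 3 (0.05187 and 0.06983) or 24-hour replicate 1 or 3 (0.05187 and 0.05886) was left out. Without the 3 digits that stood apart, 2 members were called, Spry2 and Fgfr3 (adjusted p = 0.006168 for Fgfr3). The 7.6% belongs to the fit of all NR digits, and the share of all genes without those 3 is not given here. These 2 calls are therefore not set against it.

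In intermediate digits, no change of Spry2 was called. It had 24.6, 21.4 and 20.6 CPM at 0 hours and 30.3, 17.8 and 20.6 at 24 hours, a log2 fold change of 0.06 (SE 0.243, adjusted p = 0.9303). At 14 days the digits had 25.9, 22.9 and 24.4 CPM and at 21 days 31.8, 22.1 and 17.3. The ranges of the later time points all overlap that at 0 hours.

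At 24 hours, every intermediate digit lay below every NR digit. The difference was -1.26 on the log2 scale (SE 0.226, unadjusted p = 0.000403), but in edgeR 0% of the 13024 genes tested passed adjustment at this time, and that of Spry2 was 0.2724. At an unadjusted p under 0.05, 1472 genes (11.3%) differed, and Spry2 was the only member among them. DESeq2 called Spry2 (adjusted p = 0.001194), as did edgeR without intermediate replicate 1 (0.005345), and its adjusted p ran from 0.001194 to 1 over all alternatives. The groups did not overlap at 24 hours for 17.6% of all genes with a mean CPM of at least 1, and for Spry2 and Fgf10 of the members. The test of the difference in response itself, (24 minus 0 hours, intermediate) minus (24 minus 0 hours, NR), gave -1.13 on the log2 scale for Spry2 (SE 0.292, unadjusted p = 0.001983, adjusted p = 0.4978), with 0 of 13996 genes passing adjustment and 1132 at an unadjusted p under 0.05. In the group-by-time interaction over all 4 shared times its unadjusted p was 0.002534 (adjusted p = 0.6597).

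Both date periods in the labels held both groups at 24 hours. Among digits of the earlier dates (July and August), Spry2 had 21.1 CPM at 0 hours and 59.9 and 56 at 24 hours in NR digits, against 21.4 and 20.6 and then 30.3 in intermediate digits. Among those of the later dates (November to January), it had 27.1 and 25.2 and then 50.8 in NR digits, against 24.6 and then 17.8 and 20.6 in intermediate digits. All NR digits at 12 hours had the earlier dates.

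**Figure D2:**
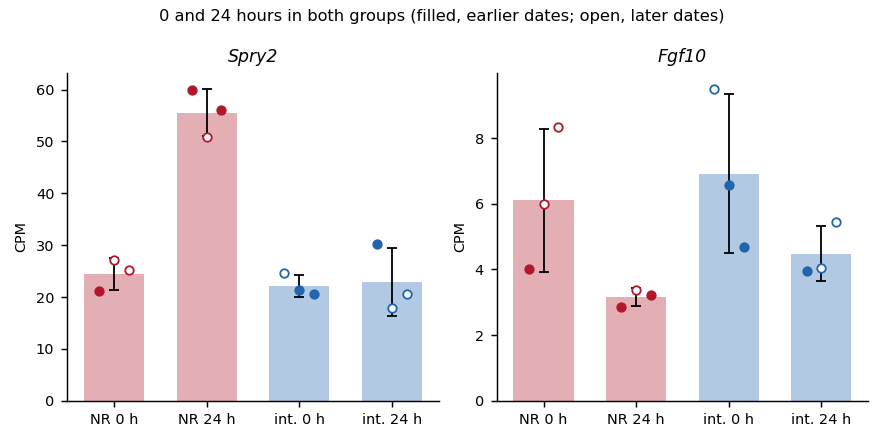
CPM of Spry2 and Fgf10 at 0 and 24 hours in NR and intermediate (int.) digits; bars are means of 3 digits, error bars the SD, points single digits, filled for the earlier and open for the later dates. Spry2 reached 50.8 to 59.9 CPM in NR digits at 24 hours and 17.8 to 30.3 in intermediate digits, with both dates on the same side.

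Neutrophil and keratinocyte marker sums rose in NR digits within the first day, and at 3 days still lay above their values at 0 hours. The summed level of 4 neutrophil markers was 13.2 to 17.1 CPM in NR digits at 0 hours, 152 to 426 at 12 hours and 331 to 478 at 24 hours, and that of 5 keratinocyte markers was 8920 to 10400 at 0 hours and 20300 to 23300 at 24 hours. At 3 days the neutrophil sum was still 190 to 317 CPM and the keratinocyte sum 14800 to 22400, while Spry2 overlapped its values at 0 hours. Over the 41 digits, Spearman's rho of Spry2 was 0.321 with the neutrophil sum and 0.3 with the keratinocyte sum. In the other direction, it was -0.383 with the fibroblast, -0.337 with the macrophage and -0.302 with the smooth muscle sum. The remaining marker lists lay between -0.278 and 0.239. Smooth muscle sums in NR digits were 342 to 866 CPM at 0 hours and 214 to 264 at 24 hours. In the intermediate digits at 24 hours the neutrophil sums were 422, 49.3 and 129 CPM and the keratinocyte sums 26500, 11800 and 13400. The first of these digits had marker sums as high as the NR digits. Its Spry2 level of 30.3 CPM was below all 3 NR digits and the highest of its own group, where the others had 17.8 and 20.6. The part of cell composition in the Spry2 result was not tested.

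Spry4, the second Sprouty gene, lies at chr18:38586247-38601415 (minus strand). It had 6.37, 3.24 and 3.57 CPM in NR digits at 0 hours, 15.8, 6.14 and 5.64 at 6 hours and 3.74, 8.84 and 16 at 12 hours. The 6- and 12-hour digits spread widely and overlapped those at 0 hours. The log2 fold change at 12 hours was 1.16 with a larger error than that of Spry2 (SE 0.555, adjusted p = 0.1742), the adjusted p at 6 hours was 0.2318, and Spry4 was not called at any time. In intermediate digits Spry4 ran from 2.82 to 10.3 CPM with no call. Spry2 and Spry4 had a Spearman correlation of 0.45 over the 41 digits, which share time points and differ in depth.

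**Figure D3:**
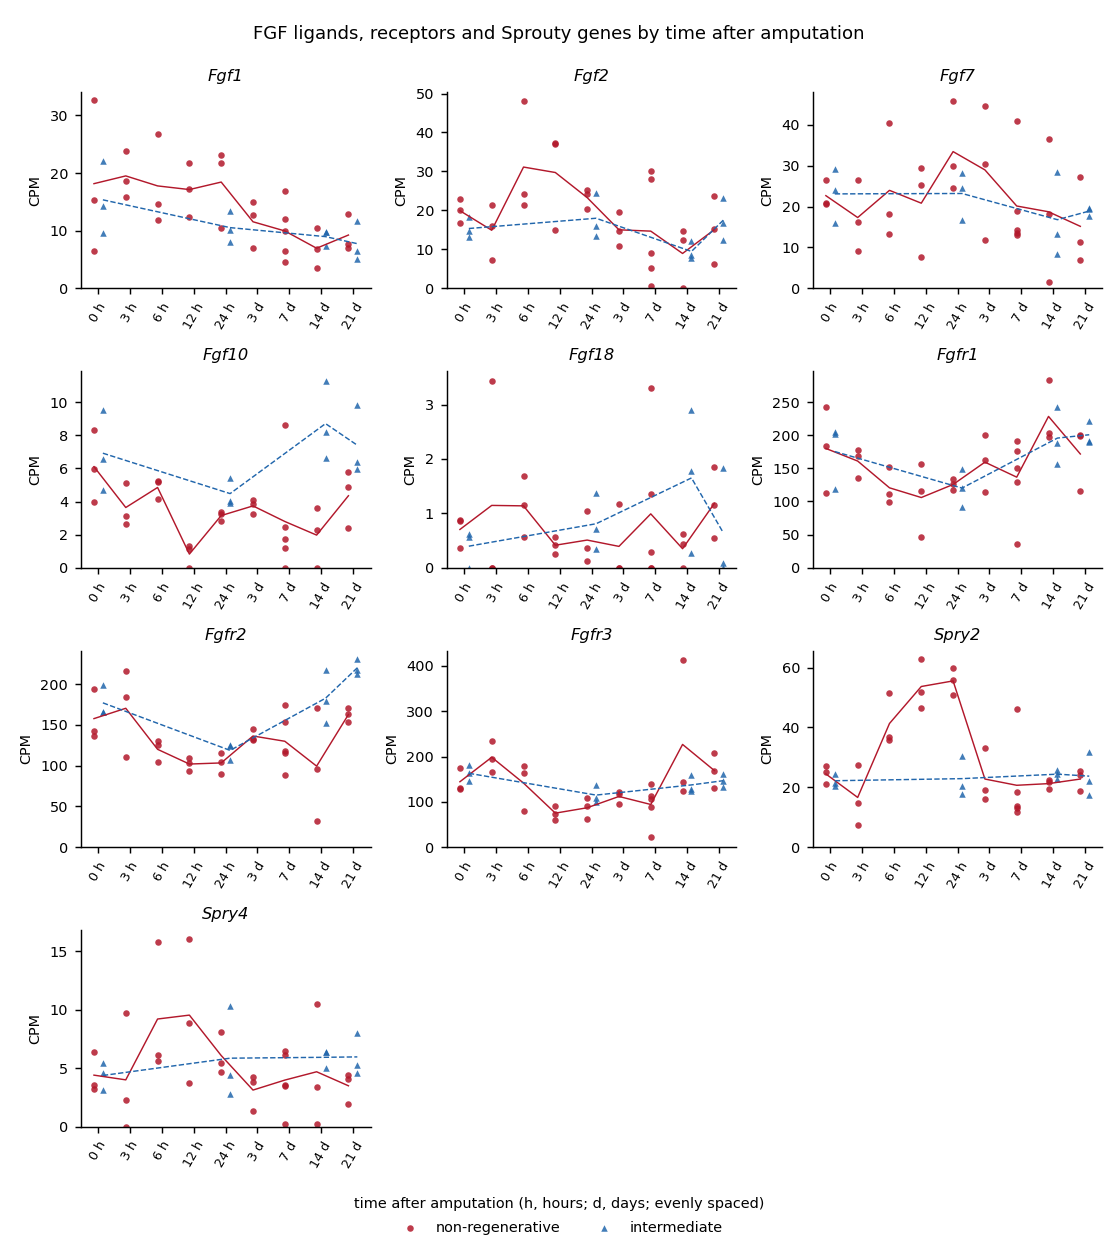
CPM of each of the 10 genes in every digit by time after amputation (time points evenly spaced); circles and solid lines are NR digits and their means, triangles and dashed lines intermediate digits and theirs. Spry2 lies between 35.7 and 62.9 CPM in NR digits from 6 to 24 hours, against 21.1 to 27.1 at 0 hours, and Fgf10 dips to between 0 and 1.33 at 12 hours.

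Among the ligands, Fgf10 was the member that fell. Fgf10, a mesenchymal ligand of epithelial Fgfr2, lies at chr13:118669791-118792115 (plus strand). In NR digits it had 4, 5.98 and 8.34 CPM at 0 hours and 0, 1.15 and 1.33 at 12 hours, from 0, 9 and 7 counts against 22, 61 and 77. The groups did not overlap, as for 41.6% of all genes at 12 hours and 39% at 24 hours. The log2 fold change at 12 hours was -2.79 (SE 0.803, adjusted p = 0.04549). At 6 hours it had been 4.14, 5.18 and 5.23 CPM, and at 24 hours it was 2.85, 3.38 and 3.23, again below all digits at 0 hours but with a log2 fold change of -0.95 that was not called (SE 0.411, adjusted p = 0.1465). The 12-hour call rests on few reads. It was lost without 0-hour replicate 2 or 3 or 12-hour replicate 2 or 3 (adjusted p between 0.07967 and 0.1546). The call was also lost in limma on log2(normalized TPM + 1) (-1.4, adjusted p = 0.06055). Both fits of all 41 digits, without and with the date as a term, lost it too (adjusted p = 0.1966 with the date), whereas DESeq2 kept it (adjusted p = 0.001829). The 0-hour digit of the earlier dates had 4 CPM, above the 3 digits at 12 hours, which share those dates. An antisense gene, Gm16263, overlaps exons of Fgf10, and the strand used in counting is not given in the sources used here.

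Intermediate digits had a higher mean Fgf10 level than NR digits at each of the 4 shared times, and did not overlap with them at 3, without passing the test. Their values were 9.5, 6.57 and 4.69 CPM at 0 hours, 3.94, 4.05 and 5.45 at 24 hours. Day 14 gave 11.3, 8.2 and 6.62 CPM, and day 21 gave 9.84, 6.38 and 5.98. At 14 days the NR digits had 3.61, 0 and 2.31 CPM and at 21 days 4.88, 2.41 and 5.76, so the groups did not overlap at 24 hours, 14 days or 21 days, as for 17.6%, 7.93% and 20.9% of all genes. At 21 days all 3 intermediate digits had the earlier and all 3 NR digits the later dates, so group and date cannot be told apart there. Over the 4 shared times the difference was 0.86 on the log2 scale (SE 0.336, unadjusted p = 0.01671), which did not pass adjustment (adjusted p = 0.7869). With a date term it was 0.92 (adjusted p = 0.9989), and without the 3 digits that stood apart 0.7 (adjusted p = 0.491). No gene of 14768 was called for the group in edgeR, with 874 (5.92%) at an unadjusted p under 0.05, and 0 in DESeq2. Fgf10 and Fgfr2 were the members among the 874.

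The other ligands showed no called change. Fgf7 (chr2:126034658-126091185, plus strand) had 26.4, 20.7 and 20.9 CPM in NR digits at 0 hours and 24.6, 29.9 and 45.8 at 24 hours, a log2 fold change of 0.57 (SE 0.266, adjusted p = 0.1745). Fgf2 (chr3:37348346-37410108, plus strand), the broadly acting basic FGF stored in matrix, had 22.9, 20.2 and 16.7 CPM at 0 hours, 48, 21.3 and 24.1 at 6 hours and 15, 37.2 and 37 at 12 hours. Its groups overlapped at 12 hours, and its log2 fold changes were 0.64 at 6 hours (SE 0.334, adjusted p = 0.2721) and 0.61 at 12 hours (SE 0.349, adjusted p = 0.2507). Exons of Fgf2 overlap Nudt6 on the opposite strand and Gm43439 on the same strand, so its count is uncertain. Fgf1 (chr18:38838673-38929404, minus strand), a ligand of all FGF receptors, varied from 6.47 to 32.6 CPM at 0 hours alone and had log2 fold changes between -0.05 and 0.1 up to 24 hours. At 14 days its NR digits had 6.85, 3.54 and 10.5 CPM (-1.36, SE 0.719, adjusted p = 0.6363), and the change was -1.06 without the digit that stood apart (adjusted p = 0.5285). In intermediate digits it went from 9.66, 14.3 and 22.1 at 0 hours to 5.12, 11.7 and 6.44 at 21 days (-0.95, SE 0.402, adjusted p = 0.2757). Fgf18 (chr11:33117430-33147400, minus strand), known from bone and cartilage, lay between 0 and 3.44 CPM, too low for a difference to be detected at this depth.

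Of the 3 receptors, Fgfr2 and Fgfr3 had lower levels in all NR digits at 12 and 24 hours than at 0 hours, each by less than 2-fold on average. Fgfr3 (chr5:33721674-33737068, plus strand) had 128, 175 and 130 CPM in NR digits at 0 hours, 74, 91.4 and 59.7 at 12 hours and 89.8, 108 and 63 at 24 hours. Groups without overlap were common at these times, at 41.6% of all genes at 12 hours and 39% at 24 hours, and 33% at 6 hours. The log2 fold change was -0.92 at 12 hours (SE 0.207, adjusted p = 0.01987), a ratio of 0.527 that missed the 2-fold limit, and -0.72 at 24 hours (SE 0.229, adjusted p = 0.06384). It was called past 2-fold at 12 hours without 0-hour replicate 1 or 3 or without 12-hour replicate 2 (log2 fold changes of -1, -1.02 and -1.09). At 3 hours the digits had 235, 194 and 166 CPM, with no call (0.46, SE 0.225, adjusted p = 0.501).

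Fgfr2, the receptor of Fgf7 and Fgf10 in its epithelial form, had 194, 143 and 136 CPM in NR digits at 0 hours, 103, 109 and 93.8 at 12 hours and 116, 89.9 and 104 at 24 hours. Again the groups did not overlap. Log2 fold changes were -0.61 at 12 hours (SE 0.183, adjusted p = 0.05258) and -0.6 at 24 hours (SE 0.194, adjusted p = 0.06684). In the intermediate digits the values were 166, 166 and 199 CPM at 0 hours and 107, 124 and 125 at 24 hours, a log2 fold change of -0.55 (SE 0.162, adjusted p = 0.1922), and Fgfr3 there went from 181, 163 and 145 to 99.6, 137 and 108 (-0.48, SE 0.186, adjusted p = 0.2802). The difference in the 24-hour response between the groups was 0.05 for Fgfr2 (SE 0.247) and 0.24 for Fgfr3 (SE 0.302) on the log2 scale, with unadjusted p-values of 0.855 and 0.4455. A difference for these receptors was not detected, and the errors do not show that the groups responded alike. Within the intermediate digits, 24 and 0 hours did not overlap for 23.4% of all genes.

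Over the intermediate time course, Fgfr2 passed adjustment, as did 6.21% of all genes (adjusted p = 0.02673), with 231, 217 and 212 CPM at 21 days as its highest level, but its 1.82-fold range kept it from being called. No member was called there, against 4.62% of all genes. At an unadjusted p under 0.05 were 3 members, Fgf2, Fgfr1 and Fgfr2, and 23.4% of all genes, and DESeq2 called 0, with 9.28% of all genes called. At 21 days Fgfr2 was higher in intermediate than in NR digits (171, 154 and 163 CPM) with no overlap, as for 20.9% of all genes. The difference was 0.4 on the log2 scale (SE 0.126, adjusted p = 0.2077). The dates separate these groups completely, 3 earlier against 3 later, so group and date cannot be told apart, and the fit of all 41 digits with a date term gave 0.14 (adjusted p = 1). Across all 41 digits, it fell by 0.22 on the log2 scale for each 10 percentage points of P3 removed (SE 0.066, unadjusted p = 0.001818, adjusted p = 0.4782). Of 14996 genes, edgeR called 0 for the amputation level (1244, or 8.3%, at an unadjusted p under 0.05) and DESeq2 called 10, with Fgfr2 among them (adjusted p = 0.02304), and gave 7 of the members no adjusted p. The Fgfr2 slope was -0.18 with a date term (adjusted p = 0.8497) and -0.15 without the 3 digits that stood apart (adjusted p = 0.368). Fgf10 had a slope of -0.4 (SE 0.172, unadjusted p = 0.02458, adjusted p = 0.5547) and the other 8 members had unadjusted p-values above 0.05. The transcripts listed for Fgfr2 span chr7:130162451-133123350 (minus strand) because 1 of them shares exons with Ctbp2, and counts per gene do not separate its epithelial and mesenchymal splice forms.

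Fgfr1 (chr8:25513654-25575718, plus strand), the main mesenchymal receptor, had 243, 113 and 184 CPM in NR digits at 0 hours, 45.9, 156 and 116 at 12 hours and 126, 117 and 134 at 24 hours. The digits at 0 hours spread over the values of the later times, and no comparison called it (-0.74, SE 0.436, adjusted p = 0.2631 at 12 hours and -0.51, SE 0.264, adjusted p = 0.2189 at 24 hours). Intermediate digits had 119, 202 and 205 CPM at 0 hours and 91.7, 120 and 149 at 24 hours (-0.52, SE 0.263, adjusted p = 0.3799).

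The receptors followed marker lists of several cell types across digits. Over the 41 digits, Spearman's rho with the neutrophil sum was -0.696 for Fgfr2, -0.591 for Fgfr3 and -0.441 for Fgfr1. With the sum of 4 fibroblast markers, rho was 0.695 for Fgfr1, 0.453 for Fgfr2 and 0.069 for Fgfr3. With the keratinocyte sum, it was -0.557 for Fgfr2, -0.408 for Fgfr1 and -0.291 for Fgfr3. The correlation of Fgfr1 was not particular to fibroblasts, with 0.621 for the endothelial, 0.546 for the macrophage and 0.532 for the smooth muscle sum. Without the 3 digits that stood apart, rho with the neutrophil sum was -0.73 for Fgfr2 and -0.611 for Fgfr3, and with the fibroblast sum 0.74 for Fgfr1. These are descriptions over digits that share time points, and the part of any of these cell types in the receptor levels was not tested.

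**Figure D4:**
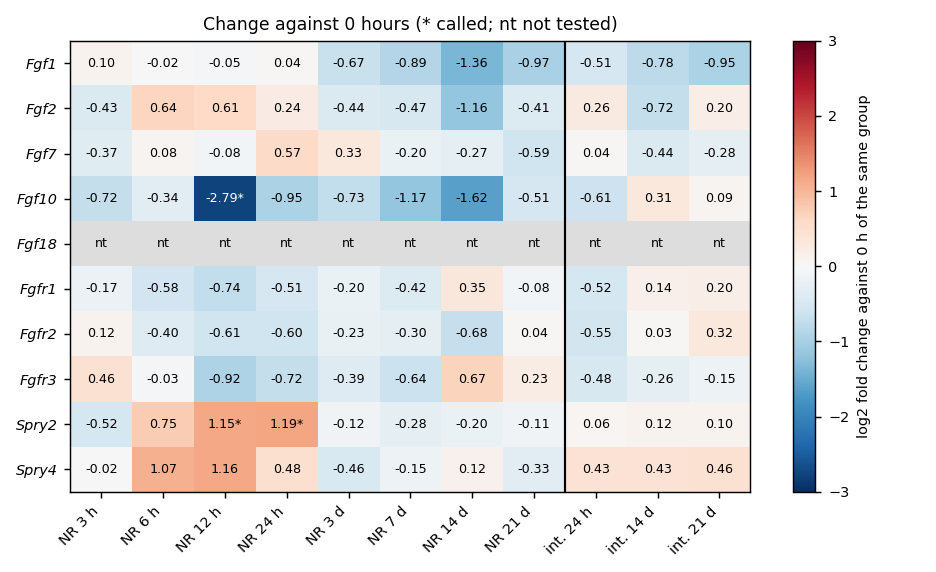
Log2 fold change of each gene against the 0-hour digits of its own group (colour and number), for 8 NR and 3 intermediate (int.) time points; stars mark called changes and nt genes not tested. The 3 starred cells are Spry2 at 12 and 24 hours (1.15 and 1.19) and Fgf10 at 12 hours (-2.79), and the 3 receptors are below 0 at 12 and 24 hours. Uncalled values at 3 hours, 7 days and 14 days shift without the digits that stood apart, as for Fgfr3 at 14 days (0.67 with and -0.13 without).

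Counted over the list, 9 of the 10 members passed the filter at each NR time point. At 12 hours 1 rose and 1 fell, where 11.4% of all genes were called (6.76% higher and 4.64% lower), and at 24 hours 1 rose, where 10.7% were called (5.57% higher). Thus 2 of 9 and 1 of 9 members were called, shares that do not set the list apart from genes at large, and the median log2 fold change of the members was -0.08 and 0.04, against -0.03 and -0.04 over all genes. Between 24 hours and 3 days 1 of 9 fell, with 2.76% of all genes called (1.5% lower). No member was called in edgeR between the other consecutive times, namely 3 to 6 hours (0.106% of all genes), 6 to 12 hours (0.0641%), 12 to 24 hours (0%), 3 to 7 days (0%), 7 to 14 days (0%) and 14 to 21 days (0%). At an unadjusted p under 0.05 were Spry2 in the first of these, Fgf10 and Fgfr3 in the next, and Fgfr3 from 7 to 14 days. That last change, 1.41 (SE 0.632, adjusted p = 0.5982), rests on the digits that stood apart, with 23.2 CPM at 7 days and 414 at 14 days. It was 0.23 without them (adjusted p = 0.9999), while the fits of all 41 digits called it (adjusted p = 0.01472, and 0.01874 with a date term). DESeq2 called no member between these times and gave Fgfr3 from 7 to 14 days no p. Over all consecutive NR times, 9 member tests had no adjusted p in DESeq2, so no call was possible in those. No member was called in edgeR against 0 hours at 3 hours (0% of all genes), 6 hours (4.85%), 3 days (0.723%), 7 days (0.0537%), 14 days (0%) or 21 days (0.452%). At an unadjusted p under 0.05 there was 1, Spry2 at 6 hours, where 25.6% of all genes were, against 10.8%, 11.1%, 4.34%, 7.7% and 7.2% at the other 5 times in order. In intermediate digits no member was called at 24 hours (0.0152% of all genes), 14 days (1.68%) or 21 days (1.39%), with 2, 1 and 2 members at an unadjusted p under 0.05 (15.4%, 13.4% and 16.6% of all genes). Between the groups, no member was called at 0 hours (0%), 14 days (0%) or 21 days (0.648%), with 0, 0 and 1 at an unadjusted p under 0.05 (3.64% of all genes at 0 hours and 14% at 21 days). DESeq2 called 3 members against 0 hours over the 8 NR times, with 5.96% of its tests over all genes called (3.53% in edgeR), 0 over the intermediate times, with 3.18% called (1.03%), and 1 between the groups, with 0.7% called (0.166%). The 8 NR comparisons share their 3 digits at 0 hours. For the group-by-time interaction edgeR called 0 of 14768 genes (1048, or 7.1%, at an unadjusted p under 0.05) and DESeq2 called 3, none a member.

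Genes downstream of and around the receptors were taken from a list of 17 other ligands, 11 receptors and co-receptors, 15 transducers and 15 feedback genes and targets. Of the feedback genes and targets, 14 were tested at each time in NR digits. At 6 hours 2 rose and 2 fell, at 12 hours 3 rose, and at 24 hours 3 rose, against 6.76% and 5.57% of all genes called higher at the last 2 of these times. At 6 hours 3.23% of all genes were called higher and 1.62% lower. Of the co-receptors, 2 of 9 rose at 6 hours, 1 of 8 rose and 1 fell at 12 hours, and 2 of 8 rose at 24 hours. Of 14 or 15 transducers, 1 fell at 12 hours, Plcg1, which encodes phospholipase C gamma (-1.11, SE 0.199, adjusted p = 0.009341; named after its value was seen). No other ligand was called at these times, of the 4 or 5 tested.

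Dusp6, a phosphatase that removes phosphate from ERK and is a feedback gene like Spry2, had 91.2, 34.2 and 51.6 CPM in NR digits at 0 hours, 205, 133 and 154 at 6 hours, 273, 228 and 185 at 12 hours and 125, 107 and 210 at 24 hours. All digits from 6 to 24 hours were above those at 0 hours, and by 3 days, at 46.7, 60.2 and 55.3, they were back among them. Groups without overlap were common, at 33%, 41.6% and 39% of all genes at 6, 12 and 24 hours. Its log2 fold changes were 1.48 at 6 hours (SE 0.357, adjusted p = 0.04987), 1.98 at 12 hours (SE 0.346, adjusted p = 0.008637) and 1.33 at 24 hours (SE 0.383, adjusted p = 0.04676), and it fell by 1.44 on the log2 scale between 24 hours and 3 days (SE 0.272, adjusted p = 0.02871). In intermediate digits Dusp6 had 41.1, 63.8 and 82 CPM at 0 hours and 67.4, 56.9 and 55.7 at 24 hours (-0.03, SE 0.245, adjusted p = 0.9652). The intermediate digits at 24 hours were below the NR digits by 1.28 on the log2 scale (-1.28, SE 0.264, unadjusted p = 0.001066, adjusted p = 0.2724), and the interaction over the shared times had an unadjusted p of 0.04847 (adjusted p = 0.6597).

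Flrt3, a membrane protein that binds FGF receptors, had the largest rise of the list genes called at 6, 12 and 24 hours, from 18.6, 21.1 and 19.7 CPM at 0 hours to 145, 90.9 and 94.9 at 12 hours and 118, 59 and 145 at 24 hours. The log2 fold changes were 2.08 at 6 hours (adjusted p = 0.002797), 2.49 at 12 hours (0.000551) and 2.45 at 24 hours (0.00239). Myc, a target of mitogen signalling, rose at 6 hours (1.24, adjusted p = 0.007669) and 12 hours (1.15, adjusted p = 0.006423). The ETS factor gene Etv4 rose at 24 hours (1.74, SE 0.276, adjusted p = 0.005407), from 4.91, 6.08 and 4.33 to 17.7, 19 and 14.2 CPM. Gpc1, a heparan sulfate proteoglycan, rose at 24 hours in NR digits (1.05, adjusted p = 0.008164) and at 14 days in intermediate digits (1.25, adjusted p = 0.01518). Not all feedback genes and targets moved upward, since Spred2, an inhibitor of RAS signalling, fell at 6 hours (-1.14, SE 0.237, adjusted p = 0.03293).

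Over the NR time course, 6 list genes were called besides Spry2, namely Dusp6 (adjusted p = 3.1e-05), Fgfbp3 (0.001975), Egr1 (0.008762), Flrt3 (0.0182), Myc (0.02152) and Fgfbp1 (0.04156). By list, these were 3 of 9 co-receptors and 3 of 14 feedback genes and targets tested, against 7.6% of all genes. Of the other ligands 0 of 6 were called, and of the transducers 0 of 15. The 6 called genes did not share a course. Egr1, an immediate early target of ERK, had 469, 207 and 126 CPM at 0 hours and 36.9, 24.4 and 96.3 at 14 days, and Fgfbp3, a carrier that frees FGFs from matrix, had 116, 210 and 206 CPM in 3 of 5 digits at 7 days and 16.5 and 24.3 in the remaining 2. The 3 high digits all had the later dates and the 2 low ones the earlier, and 1 of the high digits was among those that stood apart. Over the intermediate time course the called list genes were Hras (adjusted p = 0.02063), Egr1 (0.03389), Fgf14 (0.04171) and Gpc1 (0.04269). That is 1 each of the 15 transducers, 14 feedback genes and targets, 6 other ligands and 9 co-receptors tested, against 4.62% of all genes.

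**Figure D5:**
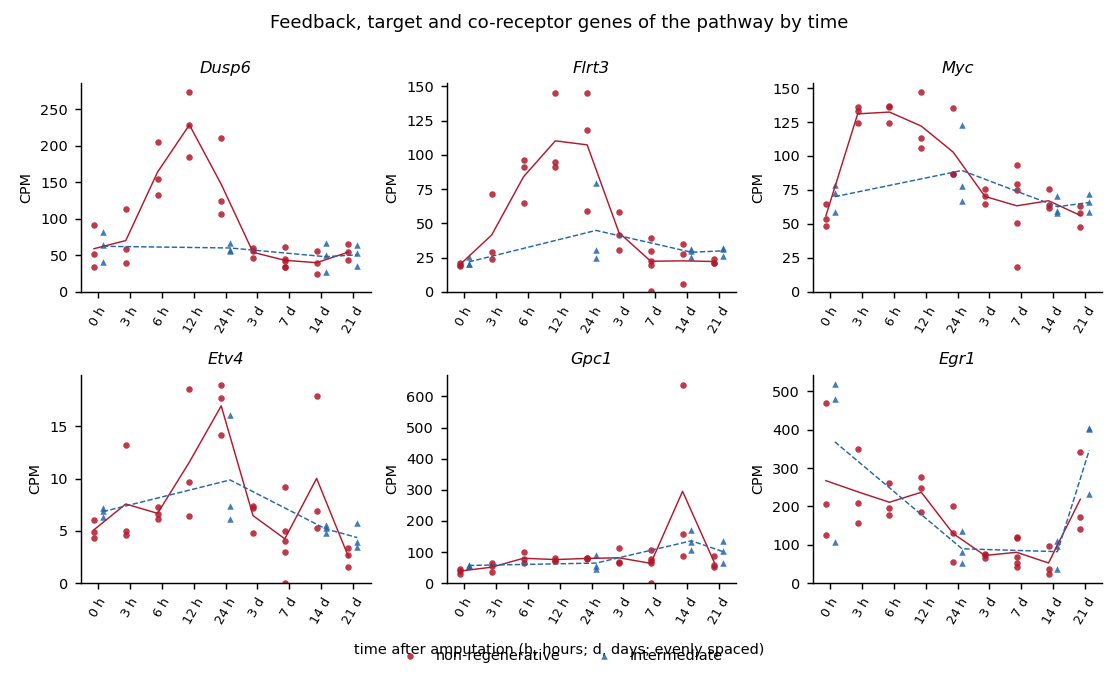
CPM of 6 feedback, target and co-receptor genes in every digit by time (evenly spaced), circles for NR and triangles for intermediate digits, lines joining the means. Dusp6 lies between 107 and 273 CPM in NR digits from 6 to 24 hours and between 55.7 and 67.4 in intermediate digits at 24 hours.

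Across all 41 digits, the genes whose levels ranked most like those of Spry2 were Nop2 (Spearman's rho 0.81), Lipg (0.751) and Il19 (0.731), of 13752 genes with a mean CPM of at least 1. The closest to Fgfr2 were Sesn3 (0.84), Rmnd5a (0.84) and Ptpn14 (0.831), to Fgfr3 Cldn23 (0.812), Ap1b1 (0.807) and Hspb8 (0.794), and to Fgfr1 Zfp651 (0.822), Nfic (0.82) and Adcy6 (0.82). The ligands had weaker neighbours. Fgf1 was closest to Slc20a1 (0.776), Atp2a2 (0.698) and Mtmr10 (0.69), Fgf2 to Crk (0.724), Rock2 (0.708) and Gfpt2 (0.7), Fgf7 to Pi15 (0.644), Plekhh1 (0.618) and Ehd3 (0.613), and Fgf10 to Ddb2 (0.656), Kat6b (0.653) and Klhl23 (0.64). Spry4 was closest to Zfp770 (0.687), Nppb (0.62) and Spred1 (0.619), the last a fellow inhibitor of RAS signalling. Fgf18 was closest to Ddit3 (0.667), Dlx6 (0.652) and Rheb (0.646), a ranking of few counts. Between members, the highest correlation was 0.47 for Fgf10 with Fgfr2, followed by 0.45 for the Sprouty genes, and the lowest was -0.499 for Spry2 with Fgfr1.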

How the data were processed

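Each library came from polyadenylated RNA of 1 digit. Reads were mapped to GRCm38 genes with Bowtie, and the authors deposited unscaled expected counts from RSEM 1.2.3. A further deposited signal, normalized TPM (TPM after median-by-ratio scaling), served here to compare genes per length. Each table held 21954 genes, and 26 gene names turned into dates were restored. Digit totals ran from 1468749 to 13011782 expected counts. Where a digit had 0 counts, up to 3 remain possible from counting error alone. Macrophage cultures of the same series were not used here.

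Digits were grouped by their labels, and replicates were numbered by labelled level within a group. Each digit was taken as a separate sample, and p-values measure the spread between digits. Some mice may have given more than 1 digit, which was not modelled.

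Expected counts were rounded and fitted with edgeR 4.0.16 in R 4.3.3 (filterByExpr, TMM, glmQLFit, glmQLFTest), on the 2 groups compared alone or, for time courses, group, interaction and level, on all digits concerned. Genes were called at a Benjamini-Hochberg adjusted p under 0.05 over all genes tested and, in all but the last 3 kinds of fit, a change over 2-fold in mean normalized count plus 1. The study used EBSeq with the same fold limit, which is not installed here. Alternatives were DESeq2 1.42.0, RLE factors, no filter, no fold limit, limma 3.58.1 on log2(normalized TPM + 1), a date term, 1 fit of 41 digits and leaving out digits. The scripts were tested on simulated data. Promoter sequences are from RefSeq (GRCm38.p6), and gene spans from the transcripts listed in the authors' table. The named genes were the 10 members, list genes called over a time course or, up to 3, in another comparison, and the 3 genes most like each member. The members and lists were chosen with earlier results of these data known. Leaving out the 3 digits that stood apart, and the fit of 0 and 24 hours alone, were chosen after seeing the data.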

Additional observations from a re-analysis of the deposited data

Results flagged for a closer look

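In the group of 5 digits, the NR digits at 7 days, 1 digit (65% of P3 removed) lay far from the other 4 for 3 of the 10 members by Dixon's test. It had 46.1 CPM of Spry2, where the next digit had 18.4, 8.63 CPM of Fgf10, where the next had 2.44, and 41 CPM of Fgf7, where the next had 19. The same digit had the lowest levels in its group of Fgfr1 (36.6 CPM) and Fgfr3 (23.2 CPM), and 0.421 CPM of Gpc1, where the other 4 had between 64.2 and 106. It is also among the 3 digits that stood apart in rank correlation. Chance alone marks about 1 in 20 groups, and the 3 values come from 1 library. The part of tissue composition or library quality was not tested.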

How the results depend on the processing

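Of 26 member results with a direction and an unadjusted p under 0.05 in edgeR, 0 changed direction under 422 alternative settings. A further 6 with such a p come from F tests over several terms, which have no direction. The 26 were picked by that p and refitted on largely the same digits, so an unchanged direction was largely set in advance. Outside this selection directions did change, as for Fgfr3 at 14 days against 0 hours in NR digits. Its log2 fold change was 0.67 with and -0.13 without the digits that stood apart. Over the NR time course, 1 member was called, and 2 with DESeq2, with RLE factors and without the 3 digits that stood apart, while the count over all genes went from 1097 to 4287 with DESeq2 and 2343 with RLE factors. The count over all genes without the 3 digits is not given here. Over the intermediate time course, 0 became 1, Fgfr2, with no fold limit. Of the calls at NR time points against 0 hours, 3 in the comparisons of 2 groups became 0 with all 41 digits in 1 fit and 0 when that fit also had a date term. Between consecutive NR time points, 1 became 0 with limma, and in both fits of all 41 digits the count stayed at 1 but Spry2 from 24 hours to 3 days was lost and Fgfr3 from 7 to 14 days gained. Between the groups at the same time, 0 became 1 with DESeq2 (Spry2 at 24 hours), and for the amputation level 0 became 1 with DESeq2 (Fgfr2). The cause of these shifts was not tested, except that the fold limit acts by its construction.

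Leaving out 1 digit at a time gave 0 to 2 members over the NR time course, 2 to 4 at NR time points against 0 hours, 0 to 2 between consecutive NR time points and 0 to 1 between the groups at the same time. The share of all genes called in these settings is not given here. A shift of these members thus cannot be told apart from a shift over all genes. Counts of members stayed at 0 in each such setting for the intermediate digits against 0 hours, the intermediate time course, the group, the interaction and the level. The date period as a term left the time course, group, interaction and level counts as they were. No paired analysis was possible because the labels give the digits no replicate number, and, of the 22 comparisons of 2 groups, none shares more than 1 combination of the mark and date in the labels. The macrophages, whose labels share numbers, enter no comparison here. With 3 digits a group and as few as 0 to 9 counts of Fgf10 at 12 hours, changes of the low members were limited by depth.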
